A study of Mus musculus with 24 samples.

Results

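The replication-dependent histone genes are the clustered genes that supply histones H1, H2A, H2B, H3 and H4 to newly made DNA. They were taken as every row of the deposited gene count table whose symbol starts with Hist1h, Hist2h, Hist3h or Hist4h and that held at least 10 counts over all 24 libraries. Of 43280 rows in the table, 70 carried one of these 4 prefixes and 63 reached the minimum. The members comprised 5 H1, 17 H2A, 18 H2B, 10 H3 and 13 H4 genes, 3 of which (Hist3h2bb-ps, Hist1h2aj and Hist1h2al) are annotated as pseudogenes. The 7 rows under the minimum were Hist2h2aa1, Hist2h2aa2, Hist2h3c1 and Hist2h3b with 0 counts, Hist2h2bb with 1, Hist1h2aa with 5 and Hist1h1t with 8. All 335706 counts of the members are described here, across 4 sorted cell populations and 2 treatments.

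The cells came from the small intestine of 6 male C57BL/6 mice that carried an Lgr5-EGFP reporter, so that green fluorescence follows the promoter of the stem cell gene Lgr5. In each treatment 2 of the mice were 15 weeks old (replicates 1 and 2) and 1 was 11 weeks old (replicate 3). NRG1, neuregulin 1, a ligand of the ERBB receptors, was injected intraperitoneally at 7.5 µg every 12 h for 5 days into 3 mice, the other 3 received PBS, and the tissue was collected on day 6. Each mouse gave 4 libraries: Lgr5high (crypt base columnar stem cells, by the labels), Lgr5med (immediate progenitors), Lgr5low (the progenitors that follow) and Lgr5neg (differentiated cells). The first 3 were gated as CD24 low and the last as CD24 negative, and cells positive for CD45, for CD31 or for the dead-cell dye propidium iodide were gated out of all of them. Each of the 8 groups therefore held 3 libraries from 3 mice.

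A dividing cell makes histone protein in S phase, and the mRNAs of these genes rise and fall with DNA synthesis. Most of them have no poly(A) tail: they end just after a short stem-loop, which is bound by SLBP, trimmed by a machinery that includes the U7 snRNP, and used again when the mRNA is degraded. Some of the genes are also known to give polyadenylated transcripts in cells that no longer divide. In the intestine, cycling cells sit in the crypt and the cells of the villus have left the cell cycle. The libraries were made with a kit (NuGEN Ovation V2, by the series' design text) that is known to prime cDNA with random as well as oligo-dT primers, so transcripts without a tail can enter a library, although the share that does was not measured.

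The stem-loop was found in the annotated transcripts of 42 of the 63 members, and it is shown for the members on which the results turn. The 16 capitals are the loop and both arms of the stem, and lower case marks 5 bases on each side. The letters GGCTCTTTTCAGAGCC were shared by 23 members, and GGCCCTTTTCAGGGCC, with an exchanged base pair in the stem, by 7.
Hist1h1e: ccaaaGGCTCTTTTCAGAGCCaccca
Hist1h1c: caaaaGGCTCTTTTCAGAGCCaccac
Hist1h2ab: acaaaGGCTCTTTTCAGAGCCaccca
Hist3h2a: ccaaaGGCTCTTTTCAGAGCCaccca
Hist1h2bm: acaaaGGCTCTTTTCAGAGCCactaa
Hist1h2bh: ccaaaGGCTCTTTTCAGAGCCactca
Hist1h2bj: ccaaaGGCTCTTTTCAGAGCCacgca
Hist1h2bk: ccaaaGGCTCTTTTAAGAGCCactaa
Hist1h3e: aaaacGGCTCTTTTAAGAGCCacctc
Hist1h4d: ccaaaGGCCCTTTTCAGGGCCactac
Hist1h4f: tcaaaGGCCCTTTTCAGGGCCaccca
Hist1h2bh, which rose with NRG1 in stem cells, and Hist1h2bm, which fell with it in immediate progenitors, carry the same 16 letters, as do Hist1h1e and Hist1h1c. Hist1h2bc and Hist1h1b had none inside their annotated model. The model of Hist1h1b is 743 bases long, and 9 of the 21 models without a stem-loop were coding sequence only.

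The genes lie in few places. On chromosome 13 of GRCm38, 24 members lie between positions 21715763 and 22043676 and 29 between 23531050 and 23934156, with Hist1h2al apart at 51202727. A further 5 lie on chromosome 3, 3 on chromosome 11 and Hist4h4 on chromosome 6. Within these clusters 14 pairs of members stand head to head with their starts less than 1000 bases apart, and 13 of these pairs join an H2A with an H2B gene. Hist1h2aj and Hist1h2bm start 235 bases apart, and Hist1h2ag and Hist1h2bj 269 bases apart.

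RefSeq promoters (GRCm38.p6) were matched for 55 of the 63 members. Those of Hist1h4d and Hist1h1b, which rose with NRG1 in Lgr5med cells, and of Hist1h2bm, which fell there, are shown as the 250 bases before the transcript start, 5′ to 3′ on the gene's strand. Capitals mark every CCAAT, a motif of many promoters, every TATAAA, the core of the TATA box, and every ATTTGCAT, the octamer motif of H2A and H2B genes, on either strand.
Hist1h4d, chr13:23581318-23581567, plus strand: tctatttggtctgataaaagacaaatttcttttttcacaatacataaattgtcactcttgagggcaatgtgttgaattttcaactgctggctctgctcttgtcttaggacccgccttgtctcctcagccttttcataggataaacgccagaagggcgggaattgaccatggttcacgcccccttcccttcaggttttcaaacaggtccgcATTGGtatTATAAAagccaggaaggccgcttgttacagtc
Hist1h1b, chr13:21780626-21780875, minus strand: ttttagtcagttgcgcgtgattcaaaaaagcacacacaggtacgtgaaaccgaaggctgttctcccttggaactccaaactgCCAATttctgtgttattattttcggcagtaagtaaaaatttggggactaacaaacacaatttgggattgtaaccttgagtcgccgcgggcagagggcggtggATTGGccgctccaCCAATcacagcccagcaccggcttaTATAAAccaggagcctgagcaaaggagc
Hist1h2bm, chr13:21721794-21722043, plus strand: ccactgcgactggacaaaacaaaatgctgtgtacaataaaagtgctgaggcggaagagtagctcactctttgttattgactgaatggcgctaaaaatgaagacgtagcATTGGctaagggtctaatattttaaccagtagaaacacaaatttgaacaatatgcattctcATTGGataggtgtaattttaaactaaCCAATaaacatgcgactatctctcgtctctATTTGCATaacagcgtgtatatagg
Matches were counted in the whole RefSeq window, the 250 bases before the start and the 50 after it. CCAAT was present in 46 of the 55 member windows (83.6%), against 37.4% of all 32851 RefSeq promoters of the same length. Over that window it occurred in every matched H1, H2A, H2B and H3 promoter and in 3 of 12 H4 promoters. The octamer was present in 11 (20%), 6 of 15 H2A and 5 of 15 H2B promoters, against 1.74% of all promoters. TATAAA was present in 33 (60%), against 13.6%. These are matches of letters in a window and do not show that a factor binds.

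Near-identical copies limit what a count for 1 of these genes means. Reads were 76 bases long by the series' design text, and how reads that match several copies were counted is not given in the sources used here. Each member's annotated transcripts (GENCODE vM21) were therefore split into all windows of 76 bases, and windows that occur in a transcript of no other locus were counted. At least 50% of windows were unique in this sense in 39 members, which held 88.9% of the members' counts. In 24 members the share was lower, in 11 of them under 20%, and in 4 (Hist2h2be, Hist2h4, Hist1h1b and Hist1h1a) every window was unique. The median share was 98.6% for H1, 34.6% for H2A, 63.4% for H2B, 47.9% for H3 and 75.6% for H4 genes. The counts of Hist1h4d (96.5% unique), Hist1h1e (94.4%), Hist1h2bh (87.7%), Hist1h2bm (83.7%) and Hist1h2bc (73.0%) come from models with mostly unique windows. These are shares of the whole annotated model, of which 1214 bases in Hist1h2bh and 770 in Hist1h4d lie after the stem-loop, and where reads fell within a model was not measured. Values for Hist1h2ai (10.7%), Hist1h2bl (27.1%), Hist1h2bk (27.4%), Hist1h3e (41.1%) and Hist1h2ab (44.7%) are uncertain, since reads of a copy could be split between genes or dropped. The exons of 20 members also overlap another gene model, and whether counting used strand is not given in the sources used here. Those of Hist1h2be and Hist1h1e overlap each other on the same strand, so strand could not separate their reads there. Windows shared only with an overlapping model were counted as unique, so the unique shares do not reflect these overlaps.

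**Figure D1:**
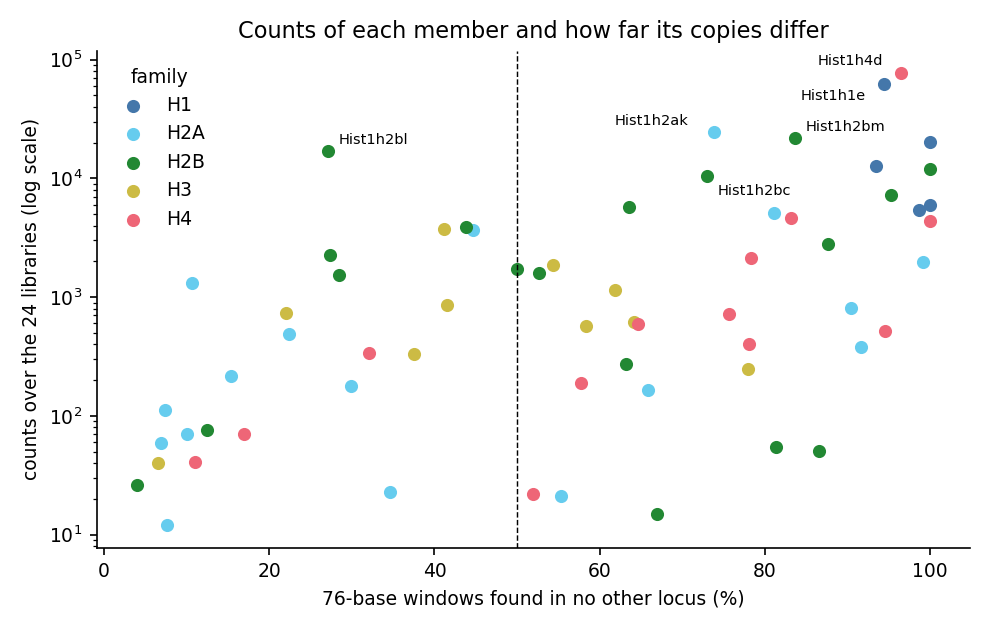
Counts of each of the 63 members summed over the 24 libraries (log axis) against the percent of its 76-base windows found in no other locus, coloured by histone family; the dashed line marks 50%. The members with the most counts, Hist1h4d and Hist1h1e, lie at the right, while most of those under 20% hold few counts.

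The libraries held between 11176264 and 23343499 counts, and 37.6 to 62.4% of them lay in the 2 mitochondrial rRNA genes, the highest shares being in Lgr5neg libraries. At this depth 1 count was worth 0.0373 to 0.0823 CPM (counts scaled to a common library size, with edgeR's TMM scaling over all 24 libraries), and a floor of 3 counts, the upper limit that a count of 0 allows, 0.112 to 0.247 CPM, which covers counting error only. The summed level of 7 stem cell markers was 2446 to 3545 CPM in Lgr5high and 76.6 to 80.0 CPM in Lgr5neg libraries of PBS mice, and that of 10 enterocyte markers 998 to 1499 and 43450 to 73530 CPM, which follows the labels. Immune markers (11 genes) summed to 81.6 to 168 CPM in Lgr5neg libraries of PBS mice and 51.5 to 400 CPM in those of NRG1 mice, and to 2.77 CPM at most in all other groups.

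The members together took 0.166% (0.130 to 0.198%, n = 3) of the counts outside mitochondrial rRNA in Lgr5high cells of PBS mice. The share was 0.153% (0.142 to 0.165%) in Lgr5med, 0.130% (0.113 to 0.157%) in Lgr5low and 0.0251% (0.0234 to 0.0263%) in Lgr5neg cells. The 3 Lgr5-positive populations, called cycling here for the S-phase transcripts they hold, overlapped one another, and every library of them lay above every Lgr5neg library. In NRG1 mice the shares were 0.234% (0.199 to 0.283%) in Lgr5high, 0.169% (0.144 to 0.201%) in Lgr5med, 0.137% (0.116 to 0.162%) in Lgr5low and 0.0332% (0.0317 to 0.0340%) in Lgr5neg cells. NRG1 and PBS libraries did not overlap in Lgr5high and Lgr5neg cells and overlapped in the other populations.

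On the CPM scale the summed level in PBS mice was 783.7 ± 158 (SD, n = 3) in Lgr5high, 750.2 ± 61 in Lgr5med, 685.6 ± 126 in Lgr5low and 180.6 ± 25.3 in Lgr5neg cells. In NRG1 mice it was 1124 ± 250, 797.8 ± 132, 690.6 ± 98.5 and 230.2 ± 17.8 CPM in the same order. The Lgr5high level was thus 4.34 times the Lgr5neg level in PBS mice by CPM and 6.61 times by share of counts, so the size of this difference depends on how libraries are scaled. The ratio of NRG1 to PBS means was 1.44 in Lgr5high, 1.06 in Lgr5med, 1.01 in Lgr5low and 1.28 in Lgr5neg cells. A single gene, Hist1h4d, moved these ratios: without it they were 1.32, 0.909, 0.920 and 1.18. With only the 39 members that were at least 50% unique they were 1.44, 1.07, 1.00 and 1.28.

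**Figure D2:**
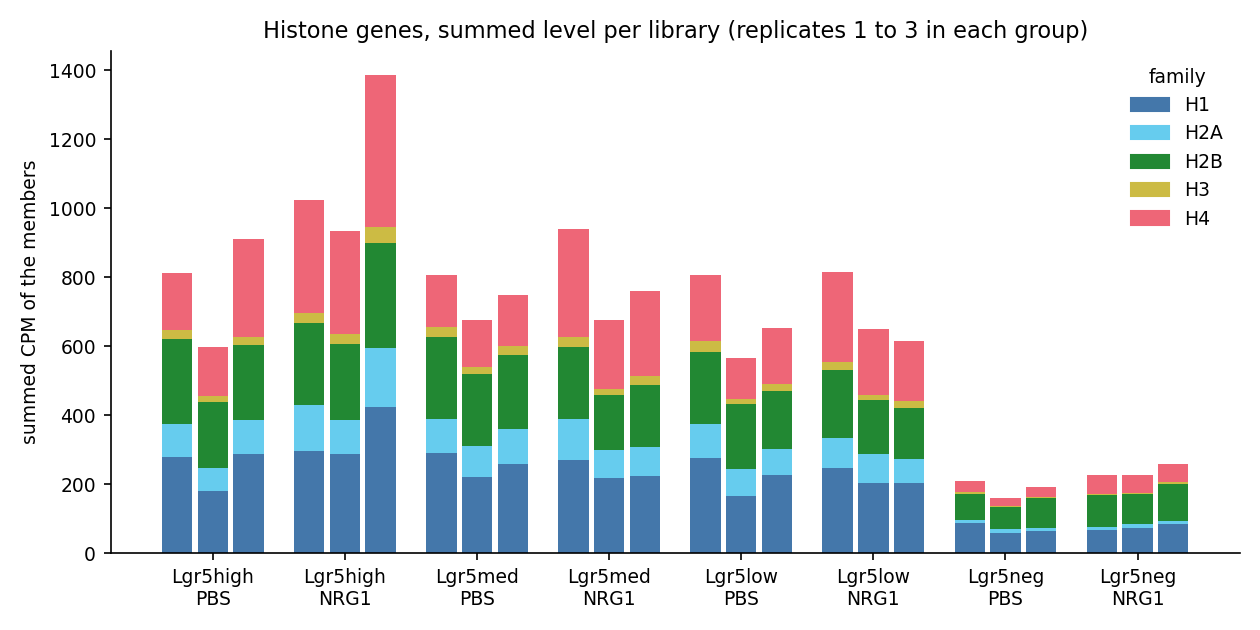
Summed CPM of the 63 members in each library, stacked by histone family, with 3 bars per group for replicates 1 to 3. The 6 Lgr5neg bars are the lowest, and the highest bar is Lgr5high NRG1 replicate 3.

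Few genes made up most of the sum. In Lgr5high cells of PBS mice Hist1h4d held 21.3% and Hist1h1e 19.2% of the members' CPM, and the 8 leading genes together 74.2%. In Lgr5neg cells of PBS mice the leading gene was Hist1h2bc with 31.0%, followed by Hist1h1e (19.4%), Hist1h1c (14.9%) and Hist1h4d (11.1%), and the 8 leading genes held 86.1%. In Lgr5high cells Hist1h2bc held 1.34%. Per kilobase of GENCODE exon, which puts genes of different length on 1 scale but may differ from the gene models the authors counted on, the highest mean levels in Lgr5high cells of PBS mice were those of Hist1h4d (145 CPM per kb), Hist1h2ak (130), Hist1h2bm (121), Hist1h2bl (121), Hist1h1e (76.8) and Hist1h1b (59.0).

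Differences between groups were tested in the fit of all genes that passed a filter on low counts (edgeR's quasi-likelihood test, Benjamini-Hochberg adjustment over all genes tested, called at an adjusted p under 0.05). Of the 63 members, 48 passed the filter in the comparisons of populations and 15 did not. The filter ran over the 12 libraries of a treatment, so a member could pass by its level in 1 population alone. In the fit of the Lgr5neg libraries by themselves 18 members passed. Many of the 48 were therefore tested because of their level in Lgr5-positive cells, which favours calls of higher levels there. Counts refer to the 48 only. Values per library below are CPM scaled over all 24 libraries, while each fold change comes from its own comparison.

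Cycling cells of PBS mice held far more histone mRNA than differentiated cells. Between Lgr5high and Lgr5neg cells 40 of the 48 members tested were called higher in Lgr5high and 1 lower. Over all 14203 genes tested 67.4% were called, 35.4% higher and 32.0% lower. The median log2 difference of the members was 3.22, and it was 3.04 with the 2 members at 0 counts in Lgr5neg cells (Hist1h2an and Hist1h2ap) put at their lower bound. The median over all genes was 0.09. Called higher were 4 of 5 H1, 10 of 11 H2A, 12 of 13 H2B, 7 of 9 H3 and 7 of 10 H4 genes. The median differences were 2.77 for H1, 4.37 for H2A, 3.98 for H2B, 3.20 for H3 and 2.22 for H4. Fewer cells that make histones and less histone mRNA in each cell cannot be told apart in such bulk libraries. The summed level of 28 S-phase genes moved with this difference, from 128 to 135 CPM in Lgr5neg to 1291 to 1454 CPM in Lgr5high cells, the immune markers were higher in Lgr5neg cells, and the part of either in it was not tested.

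Among the linker histones, which bind the DNA between nucleosomes, Hist1h1b, coding for H1.5, showed the widest gap. It measured 37.5, 36.7 and 57.3 CPM in the Lgr5high libraries of PBS mice and 1.80, 1.21 and 1.98 CPM in the Lgr5neg libraries. The groups were far apart, with a log2 difference of 4.71 (SE 0.31, edgeR adjusted p = 1.14e-09). Hist1h1e, coding for H1.4, kept a higher level in differentiated cells: 177, 106 and 162 CPM in Lgr5high against 42.4, 27.3 and 39.0 CPM in Lgr5neg libraries, a log2 difference of 2.02 (SE 0.23, edgeR adjusted p = 1.29e-06). Hist1h1c, coding for H1.2, measured 33.5, 12.8 and 29.5 CPM in Lgr5high and 39.0, 24.5 and 19.997 CPM in Lgr5neg libraries. These overlapped, with a log2 difference of -0.16 (SE 0.33, edgeR adjusted p = 0.695).

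The core histone genes showed the same separation with exceptions. Hist1h2ak, an H2A gene, measured 56.6, 37.8 and 59.0 CPM in Lgr5high and 4.57, 2.82 and 2.47 CPM in Lgr5neg libraries of PBS mice. Hist1h2bm, an H2B gene, measured 86.5, 59.7 and 44.4 CPM in Lgr5high against 2.40, 2.66 and 2.47 CPM. Hist1h4d, an H4 gene, measured 132, 123 and 241 CPM against 22.5, 17.6 and 21.8 CPM, a log2 difference of 2.99 (SE 0.24, edgeR adjusted p = 2.21e-08). Each of these 3 genes was higher in every Lgr5high than in every Lgr5neg library.

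The other abundant members gave the same picture over all treatments. The H2A gene Hist2h2ac ranged from 7.46 to 21.0 CPM (median 12.2) in the 18 cycling libraries and from 0.576 to 1.97 CPM (median 1.13) in the 6 Lgr5neg libraries. The H2B gene Hist1h2bl ranged from 26.9 to 73.1 CPM (median 37.9) and from 2.04 to 2.96 CPM (median 2.77). Neither gene's ranges overlapped. Among H3 genes Hist1h3e ranged from 5.61 to 19.9 CPM against 0.724 to 2.14, Hist1h3g from 2.24 to 7.53 CPM against 0 to 0.974, and Hist1h3a from 0.858 to 5.51 CPM against 0 to 0.658. The H4 gene Hist1h4c ranged from 5.89 to 15.9 CPM against 1.98 to 4.74 CPM, and Hist2h4, from 3.05 to 18.7 CPM against 0.402 to 4.35 CPM, was the only one of these 7 whose ranges overlapped. The H2B genes Hist1h2bh and Hist1h2bn had the largest fitted differences between Lgr5high and Lgr5neg cells of PBS mice among H2B genes, 4.81 and 5.00 on the log2 scale, with Lgr5neg levels around the floor of 3 counts. The fitted difference of Hist1h2ai rests on 1 count in the 3 Lgr5neg libraries together against 204 in the Lgr5high libraries, which is a ratio of 110 with a 95% counting interval (exact binomial) from 19.5 to 4370, and only 10.7% of its windows were unique.

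Hist1h2bc, another H2B gene, went the other way. It measured 8.94, 10.7 and 11.4 CPM in the Lgr5high, 12.1, 14.4 and 15.8 CPM in the Lgr5med, 16.2, 19.9 and 21.5 CPM in the Lgr5low and 58.6, 45.6 and 69.0 CPM in the Lgr5neg libraries of PBS mice. Every Lgr5neg library lay above every library of the other populations. The log2 difference between Lgr5high and Lgr5neg cells was -2.49 (SE 0.18, edgeR adjusted p = 3.43e-10), and that between Lgr5low and Lgr5neg cells -1.60 (SE 0.17, adjusted p = 2.22e-07). The annotated gene is spliced, spans positions 23684199 to 23692908 of chromosome 13 and has no stem-loop inside its model. Its head-to-head neighbour Hist1h2ac, whose start lies 250 bases away, was called higher in Lgr5high than in Lgr5neg cells, at 2.46, 1.52 and 2.00 against 0.374, 0.0805 and 0.576 CPM. The 7 members that were called in neither direction were Hist1h1c, Hist3h2a, Hist1h4h, Hist1h4i, Hist1h4k, Hist1h3d and Hist2h3c2. Hist3h2a, an H2A gene on chromosome 11, measured 8.30, 6.02 and 3.81 CPM in Lgr5high and 3.60, 5.47 and 4.36 CPM in Lgr5neg libraries (log2 0.42, edgeR adjusted p = 0.206). The groups of all 7 overlapped.

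**Figure D3:**
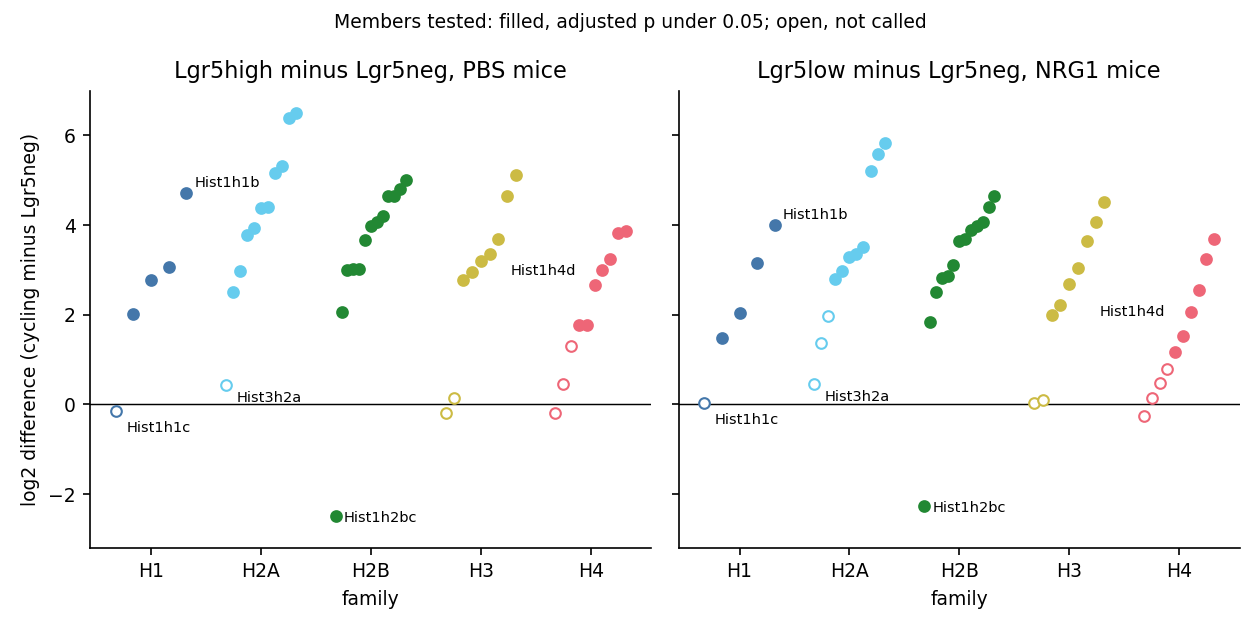
Log2 difference of each member tested between Lgr5high and Lgr5neg cells of PBS mice (left) and between Lgr5low and Lgr5neg cells of NRG1 mice (right), 1 point per gene, by family. Filled points passed an adjusted p of 0.05; Hist1h2bc is the filled point below 0 in both panels.

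Few members were called between the 3 cycling populations of PBS mice. Between Lgr5high and Lgr5med cells edgeR called 0 of 48 members and DESeq2 also 0, with 2 at an unadjusted p under 0.05, while 9.17% of all genes were called, 2.44% higher and 6.72% lower. The median log2 difference was -0.03. Between Lgr5med and Lgr5low cells 1 member was called, Hist1h2bk, at 8.96, 8.08 and 7.01 CPM in Lgr5med against 4.79, 5.25 and 2.94 CPM in Lgr5low libraries (log2 0.88, SE 0.27, edgeR adjusted p = 0.0479). This gene is 27.4% unique, its call held in 1 of 6 fits with a library left out (that without Lgr5low PBS replicate 2, adjusted p = 0.0458), and 7.59% of all genes were called in the comparison, 2.00% higher and 5.59% lower. The members' median was 0.19. Between Lgr5low and Lgr5neg cells 38 members were called higher in Lgr5low and 1, Hist1h2bc, lower, against 30.6 and 25.3% of all genes (55.8% in either direction), with a median of 2.92 (2.86 with bounds for 2 genes at 0) and of 0.11 over all genes. The H2B genes Hist1h2bh (4.86, edgeR adjusted p = 3.02e-07), Hist1h2bn (4.84, adjusted p = 1.72e-06) and Hist1h2bj (4.48, adjusted p = 2e-06) had large fitted differences that rest on few Lgr5neg counts. These were 6, 0 and 1 counts for Hist1h2bh, 2, 1 and 1 for Hist1h2bn, which is 28.4% unique, and 1, 6 and 0 for Hist1h2bj, while Hist1h2ai had 170 counts in the Lgr5low against 1 in the Lgr5neg libraries. Of the steps between neighbouring gates in PBS mice, only that from Lgr5low to Lgr5neg cells had more than 1 member called.

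In NRG1 mice the same step was seen. Between Lgr5low and Lgr5neg cells 37 members were called higher in Lgr5low and 1 lower, against 30.4 and 26.6% of all genes (57.0% in either direction), with a median log2 difference of 2.85 (2.73 with bounds for 2 genes at 0). The H2B genes Hist1h2bh, Hist1h2bf and Hist1h2bk differed by 4.65, 4.41 and 4.06 on the log2 scale, Hist1h1b by 3.99 and Hist1h2bc by -2.27. Between Lgr5med and Lgr5low cells edgeR called 0 of 48 members, DESeq2 1, and 3 had an unadjusted p under 0.05, with 4.72% of all genes called, 0.923% higher and 3.8% lower.

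Between Lgr5high and Lgr5med cells of NRG1 mice 1 member was called higher in Lgr5high, 1 lower, and 40 of 48 had a positive difference (median 0.45), while 3.11% of all genes were called, 0.594% higher and 2.52% lower. Hist1h2bm measured 47.9, 63.7 and 90.5 CPM in Lgr5high and 32.2, 38.9 and 42.7 CPM in Lgr5med libraries (log2 0.80, SE 0.20, edgeR adjusted p = 0.0385). Hist1h2bc measured 9.44, 7.39 and 6.02 CPM in Lgr5high and 12.9, 10.6 and 13.4 CPM in Lgr5med libraries (log2 -0.71, SE 0.19, adjusted p = 0.0445). Neither gene's groups overlapped, but each call held in only 1 of 6 fits with a library left out. With the mouse as a block, which the labels support since each mouse gave both populations, 6 members were called, 5 higher and 1 lower. These included Hist1h1b (0.52, edgeR adjusted p = 0.0197), Hist1h1a (0.73, adjusted p = 0.0217) and Hist1h2bh (0.80, adjusted p = 0.0274). The 3.11% of all genes belongs to the fit without the block, and the share with it is not given here. The gain in calls can therefore not be read as particular to histone genes.

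With NRG1, 5 histone genes were higher in stem cells and none was lower past the threshold. Of 48 members tested in Lgr5high cells 5 were called higher with NRG1 and 0 lower, against 3.18 and 4.15% of all 13322 genes (7.33% in either direction), and 13 members had an unadjusted p under 0.05. The difference was positive in 38 of the 48, with a median of 0.38 on the log2 scale against 0.01 over all genes. The 3 NRG1 libraries all lay above the 3 PBS libraries in 10 members (20.8% of those tested) and below them in none, while 14.1% of all genes were separated upward and 13.4% downward. The medians were 0.21 for H1, 0.71 for H2A, 0.21 for H2B, 0.58 for H3 and 0.36 for H4 genes. The called genes were 1 from each family, and DESeq2 called these 5 and 2 more, all higher.

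The H1 gene Hist1h1b measured 37.5, 36.7 and 57.3 CPM in the PBS and 78.2, 70.1 and 97.5 CPM in the NRG1 libraries of Lgr5high cells. Every NRG1 library was higher, and the log2 difference was 0.92 (SE 0.17, edgeR adjusted p = 0.00817). The H2B gene Hist1h2bh rose from 6.93, 3.50 and 5.72 to 11.1, 11.5 and 12.5 CPM, a log2 difference of 1.14 (SE 0.22, adjusted p = 0.0053). Its NRG1 libraries lay close to one another, above all PBS libraries. The H3 gene Hist1h3e rose from 6.79, 6.47 and 8.94 to 13.4, 11.8 and 19.9 CPM (log2 1.04, SE 0.20, edgeR adjusted p = 0.00607). The H4 gene Hist1h4f rose from 0.958, 1.07 and 1.63 to 3.61, 2.96 and 4.57 CPM (log2 1.62, SE 0.32, adjusted p = 0.00583). These 4 genes stayed called in all 6 fits that left out 1 library, but Hist1h4f missed the threshold with all 24 libraries in 1 model (1.60, edgeR adjusted p = 0.0555). Hist1h2ab, an H2A gene at 7.75, 6.70 and 9.44 CPM in PBS and 14.3, 10.0 and 15.2 CPM in NRG1 libraries (log2 0.74, edgeR adjusted p = 0.0244), stayed called in 2 of the 6, and in neither the 15-week-old mice (adjusted p = 0.0727) nor the model of all libraries (adjusted p = 0.161).

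For the most abundant member in stem cells the call depended on the fit. Hist1h4d measured 132, 123 and 241 CPM in the PBS and 290, 254 and 388 CPM in the NRG1 libraries of Lgr5high cells. Replicate 3, the 11-week-old mouse, was the highest of both groups, the groups did not overlap, and the log2 difference of 0.93 (SE 0.30) had an edgeR adjusted p of 0.139 (0.102 with DESeq2). It was called in the 15-week-old mice (1.09, edgeR adjusted p = 0.00108), without the filter on low counts (0.89, adjusted p = 0.00704) and with all 24 libraries in 1 model (0.91, adjusted p = 0.0274). With the replicate number, which also follows age, as a block it was called too (0.97, edgeR adjusted p = 0.000269). Without PBS replicate 3 it was 1.30 with an adjusted p of 0.000238, and 9 members in place of 5 were called, while in the 5 other fits with a library left out the adjusted p was 0.151 to 0.317. The H2A gene Hist1h2ak, at 56.6, 37.8 and 59.0 against 87.3, 67.5 and 121 CPM, was separated too (log2 0.86, edgeR adjusted p = 0.0802). It was called with DESeq2 (adjusted p = 0.000634), without the filter (5.85e-08), with all libraries in 1 model (0.016) and without NRG1 replicate 2 (0.0131). Hist1h1e and Hist1h2bm overlapped between the treatments.

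In immediate progenitors 12.5% of the members tested were called, 2 higher and 4 lower, a share near that of all genes. Of 48 members tested in Lgr5med cells 2 were called higher with NRG1 and 4 lower, against 3.76 and 5.79% of all 13394 genes (9.55% in either direction), with a median log2 difference of -0.06 and of 0.01 over all genes. The groups were separated upward in 6 members and downward in 6, while 15.0 and 15.7% of all genes were separated. Of the 13 H2B genes tested, 3 were called lower and none higher, and edgeR called no H2A and no H3 gene (0 of 11 and 1 of 9 at an unadjusted p under 0.05). DESeq2 called the same 6 members. Without Lgr5med PBS replicate 2, 2 members rather than 6 were called, 1 in each direction.

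Hist1h4d measured 115, 109 and 117 CPM in the PBS and 275, 168 and 212 CPM in the NRG1 libraries of Lgr5med cells, a log2 difference of 0.96 (SE 0.16, edgeR adjusted p = 0.00293). Hist1h1b measured 41.5, 30.2 and 34.3 CPM in PBS and 59.4, 55.3 and 53.6 CPM in NRG1 libraries (log2 0.69, SE 0.13, edgeR adjusted p = 0.00648). All NRG1 libraries of both genes were above all PBS libraries. Hist1h2bm fell from 80.1, 59.4 and 66.8 to 32.2, 38.9 and 42.7 CPM, with no overlap (log2 -0.84, SE 0.14, edgeR adjusted p = 0.00336). The H2B genes Hist1h2bj, which fell from 6.42, 7.14 and 5.60 to 3.26, 2.87 and 2.31 CPM (log2 -1.16, SE 0.24, adjusted p = 0.0087), and Hist1h2bk, which fell from 8.96, 8.08 and 7.01 to 3.40, 4.36 and 5.13 CPM (log2 -0.88, SE 0.22, adjusted p = 0.0231), lie in the same cluster on chromosome 13 and are 50% and 27.4% unique. Hist1h1a, coding for H1.1, fell from 17.6, 17.2 and 19.0 to 13.1, 11.0 and 7.35 CPM (log2 -0.75, SE 0.19, edgeR adjusted p = 0.02504). With 1 library left out at a time, Hist1h4d and Hist1h2bm stayed called in 6 of 6 fits, Hist1h1b and Hist1h2bj in 5, Hist1h1a in 3 and Hist1h2bk in 1. With all 24 libraries in 1 model Hist1h2bj (edgeR adjusted p = 0.0685) and Hist1h2bk (0.0633) were not called, and in the 15-week-old mice Hist1h1a (0.16) was not.

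In Lgr5low cells edgeR called 0 of 43 members tested and DESeq2 0, with 7 at an unadjusted p under 0.05, while 0.443% of all genes were called, 0.143% higher and 0.3% lower. The median log2 difference was -0.13. Hist1h2bm measured 59.1, 51.7 and 41.2 CPM in PBS and 28.5, 38.9 and 31.8 CPM in NRG1 libraries (log2 -0.60, edgeR adjusted p = 0.15). Hist1h4d measured 147, 95.3 and 141 CPM in PBS and 228, 162 and 152 CPM in NRG1 libraries (log2 0.50, adjusted p = 0.29). Both genes' groups were separate. With the replicate number as a block 4.3% of all genes and 3 members were called: Hist1h4d (0.51, edgeR adjusted p = 0.0383) higher, and Hist1h2bm (-0.60, adjusted p = 0.0291) and Hist1h1a (-0.71, adjusted p = 0.0353) lower.

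In Lgr5neg cells 18 members were tested and 1 was called, against 0.328% of all genes (0.151% higher and 0.176% lower), with a median log2 difference of 0.17. That median turned to -0.0208 when the 56 members with any counts were tested without the filter on low counts. Hist1h4d rose from 22.5, 17.6 and 21.8 CPM in PBS to 41.6, 42.9 and 42.3 CPM in NRG1 libraries. The NRG1 libraries lay close together and clear of the PBS libraries, with a log2 difference of 1.04 (SE 0.16, edgeR adjusted p = 0.0269). The difference was 0.94 to 1.09 whichever library was left out, but the adjusted p was under 0.05 only without Lgr5neg NRG1 replicate 1, and in the other 5 fits it was 0.0658 to 0.183. Hist1h2bc measured 58.6, 45.6 and 69.0 CPM in PBS and 76.1, 66.03 and 89.6 CPM in NRG1 libraries and was called only with the replicate number as a block (0.44, adjusted p = 0.0177). With that block 7.05% of all genes were called. The immune marker range of these libraries, given above, is wider with NRG1, and its part in these values was not tested.

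**Figure D4:**
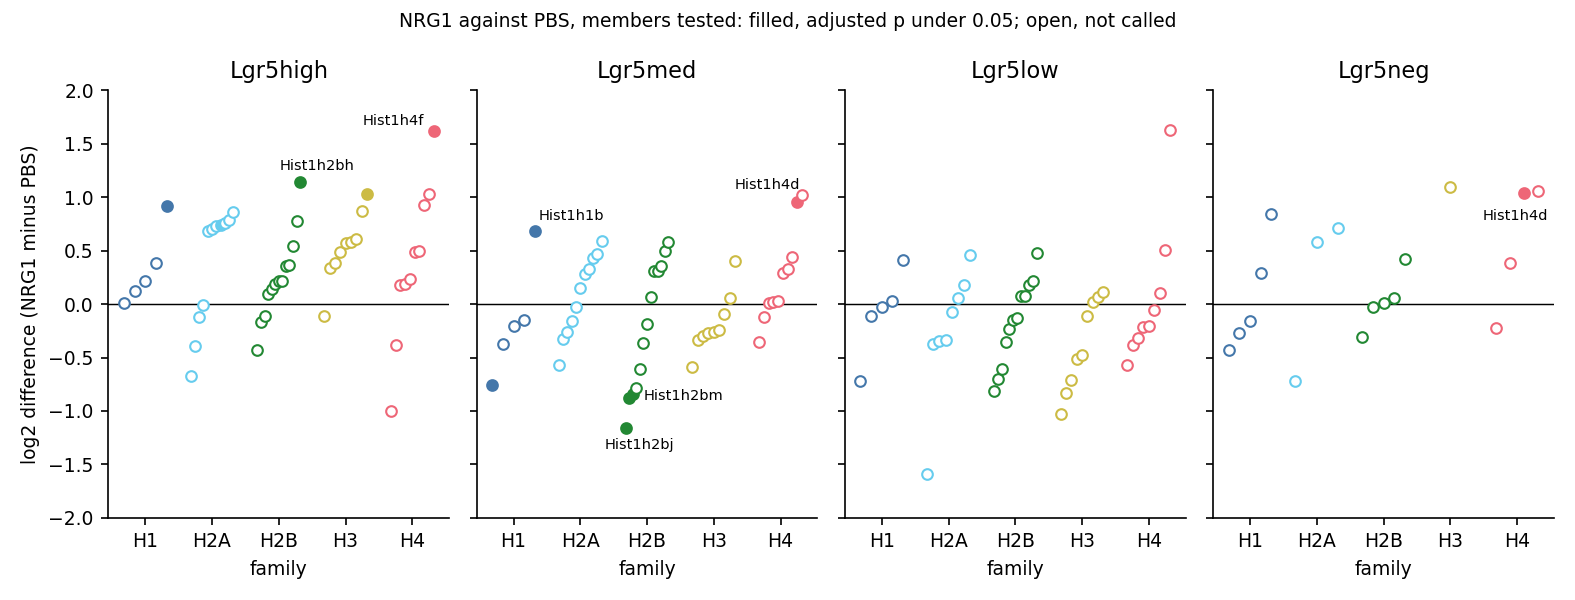
Log2 difference between NRG1 and PBS mice for each member tested in the 4 populations, 1 point per gene, by family; filled points passed an adjusted p of 0.05. Filled points lie above 0 in Lgr5high, on both sides in Lgr5med, nowhere in Lgr5low and at Hist1h4d alone in Lgr5neg cells.

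Whether the response to NRG1 differed between populations was tested directly. For Lgr5high against Lgr5med cells edgeR called 0 of 49 members (5 at an unadjusted p under 0.05), for Lgr5high against Lgr5low cells 0 (8) and for Lgr5high against Lgr5neg cells 0 (3), and over all genes 0, 0 and 0.0532% were called (0.0133% higher and 0.0399% lower in the last). DESeq2 also called 0 members in each. The members' median difference in response was 0.49, 0.65 and 0.28 on the log2 scale. The response of Hist1h2bm was 0.94 higher in Lgr5high than in Lgr5med cells (SE 0.30, edgeR adjusted p = 1), and that of Hist1h4d differed by -0.03. No difference in histone response between populations passed the test, which does not show that the responses were alike.

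**Figure D5:**
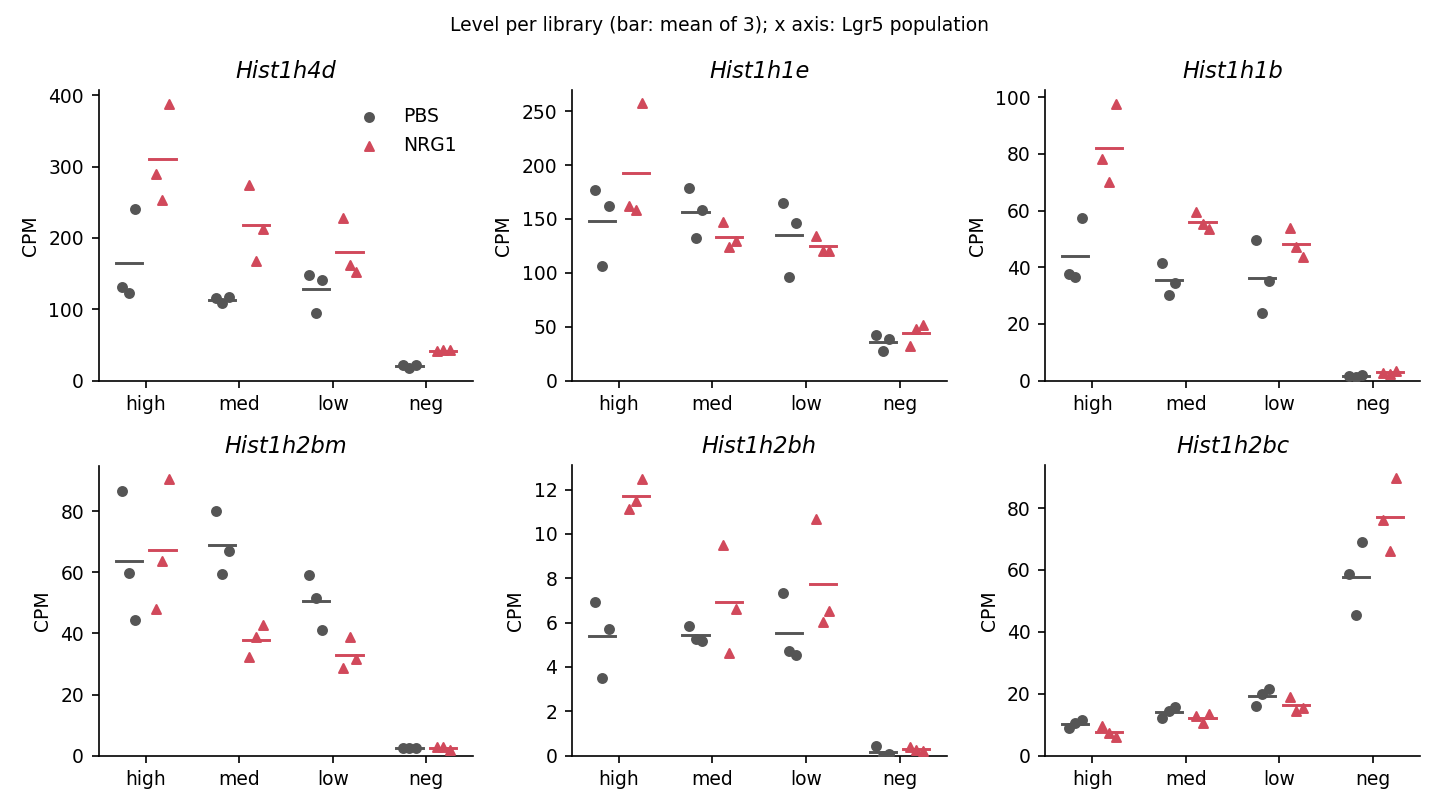
CPM in each library (circles, PBS; triangles, NRG1; bars, means of 3) of 6 members across the 4 populations. Hist1h4d is above PBS in every NRG1 group, Hist1h2bm is below it in Lgr5med and Lgr5low cells, and Hist1h2bc is the only one of the 6 that is highest in Lgr5neg cells.

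The S-phase and mitotic genes measured beside the histones moved apart in the stem cell comparison. The 28 S-phase genes summed to 1291 to 1454 CPM in PBS and 828 to 956 CPM in NRG1 libraries of Lgr5high cells. Of 27 tested 16 were called lower and 0 higher, against 4.15 and 3.18% of all genes. The 24 G2/M genes summed to 2867 to 3120 CPM in PBS and 4326 to 5531 CPM in NRG1 libraries, and 23 were called higher and 0 lower. In Lgr5med cells 6 S-phase genes were called lower and 10 G2/M genes higher, against 5.79% of all genes lower and 3.76% higher. The part of these cell cycle differences in the histone values was not tested.

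Members were also described by the 3′ end of their gene model in the comparison of Lgr5high with Lgr5neg cells of PBS mice, in which 35.4% of all genes were called higher. Members whose model ends no more than 300 bases after the stem-loop were called higher in 17 of 18 cases, with a median log2 difference of 3.95. Members with a longer stretch after it were called higher in 12 of 17 cases, with a median of 2.50. Members with no stem-loop in the model were called higher in 11 of 13 cases and lower in 1, with a median of 3.94, close to that of the short ends. Members with AATAAA, the poly(A) signal, in the last 50 bases of the model had a median of 2.67 (9 tested), and the others 3.69 (39 tested). These are descriptions, since the models were built from RNA of many tissues and the split was not tested. Octamer and no octamer in the promoter gave medians of 3.73 (8 tested) and 3.36 (35 tested). The octamer was found in H2A and H2B promoters only, while the others include H1, H3 and H4 genes. The family medians, 4.37 for H2A and 3.98 for H2B, lay above those of H1 (2.77), H3 (3.20) and H4 (2.22). Octamer and family therefore cannot be told apart in these 2 medians.

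Of 24 genes that transcribe and process histone mRNA, 17 were called higher in Lgr5high than in Lgr5neg cells of PBS mice, against 35.4% of all genes, and 1 lower, against 32.0%: Mif4gd, a partner of SLBP in translation. Npat, the coactivator of histone genes, differed by 1.98, Slbp by 1.37 and Lsm11, a U7 snRNP subunit, by 2.41 on the log2 scale. With NRG1 in Lgr5high cells 4 of the 24 were called, against 7.33% of all genes. Of these Zfp473, a U7 snRNP-associated zinc finger protein (1.03, edgeR adjusted p = 0.00885), and Pou2f1, the factor that binds the octamer (0.57, adjusted p = 0.00969), were called higher, and Slbp (-0.56, adjusted p = 0.0133) and Casp8ap2, coding for the processing factor FLASH (-0.40, adjusted p = 0.0348) lower. Slbp, which binds the stem-loop, measured 25.3, 29.0 and 30.3 CPM in PBS and 19.2, 18.04 and 19.5 CPM in NRG1 libraries, with no overlap. Npat differed by -0.02 (adjusted p = 0.959). In Lgr5med cells 1 of the 24 was called, against 9.55% of all genes. This was Ctif, a translation factor (-1.11, edgeR adjusted p = 0.00173), and Slbp differed by less than 0.01.

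Among 17 genes of histone mRNA decay, 11 were called higher and 2 lower in Lgr5high than in Lgr5neg cells of PBS mice. Over all genes 35.4% were called higher and 32.0% lower there (67.4% in either direction), so the calls in this list leaned to higher levels in Lgr5high cells. The exonuclease genes Dis3 and Eri1 differed by 3.44 and 2.46 on the log2 scale and Atr, a kinase of the replication stress response, by 3.09. With NRG1, Lsm3 was called lower in Lgr5high cells (-0.56, edgeR adjusted p = 0.0228), against 4.15% of all genes. Lsm1 and Lsm5 were called higher in Lgr5med cells, against 3.76% of all genes. All 3 code for subunits of LSM rings.

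Of 23 histone chaperone and acetylation genes, 19 were called higher and 1, Tonsl, lower in Lgr5high than in Lgr5neg cells of PBS mice. Of all genes 35.4% were called higher and 32.0% lower in that comparison. Nap1l1, an H2A-H2B chaperone, differed by 5.37, Chaf1b, a subunit of the assembly factor CAF-1, by 5.20 and Asf1b by 4.50 on the log2 scale. With NRG1 in Lgr5high cells 3 were called lower and 0 higher, against 4.15 and 3.18% of all genes. These were Chaf1b (-0.87, edgeR adjusted p = 0.0053), the helicase subunit gene Mcm2 (-0.61, adjusted p = 0.0214) and Nasp, an H1 and H3-H4 chaperone (-0.50, adjusted p = 0.0239). In Lgr5med cells Chaf1a (-0.87), Ubn1 (-0.58) and Nasp (-0.49) were called lower and Rbbp4 (0.70) and Nap1l1 (0.45) higher, against 5.79 and 3.76% of all genes. Chaf1b, Mcm2 and Nasp were thus lower in the stem cells in which the 5 called histone genes were higher.

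Of 10 genes that drive the G1/S transition, 6 were called lower with NRG1 in Lgr5high cells and 1 higher, against 4.15 and 3.18% of all genes. E2f1, the activator of S-phase genes, measured 16.6, 19.1 and 12.9 CPM in PBS and 6.04, 3.89 and 3.76 CPM in NRG1 libraries (log2 -1.82, edgeR adjusted p = 0.000229). Ccne1, the cyclin that acts with CDK2 on NPAT, fell by 1.66 (adjusted p = 0.00412), and E2f2 (-1.19), E2f3 (-0.69), Ccne2 (-0.85) and Mybl2 (-0.61) were also lower. Ccna2, a cyclin of S phase and G2, was higher (0.50, adjusted p = 0.0366). In Lgr5med cells E2f1 (-2.01), E2f2 (-1.67) and Ccne1 (-1.07) were called lower and none higher, against 5.79 and 3.76% of all genes.

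Histone variants made outside replication numbered 13, of which 10 were tested in Lgr5high and 9 in Lgr5med and Lgr5neg cells. With NRG1 in Lgr5high cells Cenpa, the centromeric H3 (1.25), H3f3a, coding for H3.3 (1.18), and H2afz, coding for H2A.Z (0.61), were called higher and H2afj lower (-0.49). Of all genes 3.18% were called higher and 4.15% lower there. In Lgr5med cells H3f3a (1.53), Cenpa (0.92) and H2afz (0.59) were called higher and H1f0, the linker histone of resting cells, lower (-0.48). The shares of all genes there were 3.76% higher and 5.79% lower. In Lgr5neg cells H3f3a was called higher (1.74, edgeR adjusted p = 0.0275), against 0.151% of all genes. H3f3a and H2afz have near-identical copies elsewhere in the genome, so their counts carry the same uncertainty as those of the clustered genes. Of the processing, decay, chaperone and G1/S genes together, edgeR called 0 of 74 tested in Lgr5low cells with NRG1 (15 at an unadjusted p under 0.05) and 0 of 69 in Lgr5neg cells (7), and DESeq2 was not run on these lists. With the replicate number as a block 5 were called in Lgr5low cells, against 4.3% of all genes: E2f1 (-1.12), E2f2 (-0.77), Ccne1 (-1.79) and Ctif (-0.69) lower and Nap1l1 (0.60) higher. In Lgr5neg cells 3 were, against 7.05% of all genes: Ctif (-0.73) and Ubn1 (-0.55) lower and Rbbp4 (0.69) higher.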

How the data were processed

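RNA was sequenced from 24 sorted samples. The authors deposited 1 table of whole-number counts per gene symbol; per the submitters' processing notes STAR, featureCounts and GRCm38 were used, and the sources used here give no version, annotation, strand setting or handling of reads that match several places. An input of 15 ng of RNA and single-end reads of 76 bases are stated by the series' design text. Groups came from the labels. The members, gene lists and tests were chosen with earlier results of these data known.

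Counts were scaled by TMM, filtered with filterByExpr (minimum count 10, minimum total 15) and tested with edgeR 4.0.16 (glmQLFit, robust, and glmQLFTest) in R 4.3.3, with Benjamini-Hochberg adjustment over all genes tested and a threshold of 0.05. NRG1 and PBS were compared within each population (6 libraries), populations within each treatment (12 libraries in 1 model), and responses between populations over all 24. The tests were checked on simulated data. The alternatives were DESeq2 1.42.0, no filter on low counts, mitochondrial rRNA left out, the 15-week-old mice only, all libraries in 1 model, a block and each library left out; the block on the gene lists was added after seeing the data.

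The labels tie each mouse to 1 library per population, so libraries of different populations share mice. The main fits of populations and of responses carried no mouse term and so left this pairing out. The mouse as a block was run as an alternative only. Between treatments no mouse is shared, but mice of the same replicate number were of the same age. Replicate 3 was 11 weeks old in both treatments and the others were 15 weeks old. A block on the number therefore also takes up the difference in age. Same-numbered deviations correlated at 0.169, 0.132 and 0.172 in Lgr5low and 0.175, 0.168 and 0.103 in Lgr5neg cells. These lie above 0.1, the cut-off set for printing blocked values beside the unblocked main results there. The cut-off cannot show or exclude pairing. Lgr5high and Lgr5neg libraries of the same PBS mouse correlated at only 0.0462, 0.0296 and 0.0276. Not every pair of an NRG1 and a PBS library was above 0.1 in Lgr5high (0.0769, 0.222 and 0.0703) and Lgr5med cells (0.205, 0.0714 and 0.153). Blocked values of those populations are given as alternatives, although their replicate numbers follow age too.

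Named members were the 3 most abundant of each family and, of the called members whose average log2 CPM was 1 or more, the 4 with the largest difference in each direction, with any called against the majority. Hist1h2ab, Hist3h2a and the members separated without a call were named after their values were seen. Of the processing and chaperone lists, at most 6 called genes in each direction were named, with Slbp and Npat always. Gene models came from GENCODE vM21, matched for all 63 members, and promoters from RefSeq. A column that belongs to no sample was not found in the table (0 columns).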

Additional observations from a re-analysis of the deposited data

How the results depend on the processing

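Counts of members called are given below for each alternative that moved them by over 1.5 times, and in every case the cause was not tested. The block raised the share called over all genes from 0.443 to 4.3% in Lgr5low and from 0.328 to 7.05% in Lgr5neg cells. For the other alternative fits that share is not given here. A changed count of members can therefore not be read as particular to histone genes. For NRG1 against PBS in Lgr5high cells the 5 calls became 8 with the replicate number as a block, Hist1h4d (0.97, edgeR adjusted p = 0.000269) and Hist1h2ak (0.85, adjusted p = 0.000365) among them, and 9 without the filter on low counts. In Lgr5low cells 0 became 3 with the block and 4 without the filter. In Lgr5neg cells 1 became 2 with the block and 0 in the 15-week-old mice, and the members' median log2 difference of 0.17 became -0.0208 without the filter, -0.03101 with DESeq2 and 0 with all libraries in 1 model. In Lgr5med cells the block gave 8 calls, 2 higher and 6 lower. For Lgr5high against Lgr5med cells of PBS mice 0 became 1 without the filter, and of NRG1 mice 2 became 6 with the mouse as a block, 9 without the filter, 6 with DESeq2 and 0 in the 15-week-old mice. For Lgr5med against Lgr5low cells 1 became 0 in the 15-week-old mice and with all libraries in 1 model in PBS mice, and 0 became 1 with DESeq2 in NRG1 mice. Leaving out 1 library at a time gave 4 to 9 calls for NRG1 in Lgr5high, 2 to 6 in Lgr5med, 0 in Lgr5low and 0 to 1 in Lgr5neg cells. For Lgr5high against Lgr5med it gave 0 to 1 in PBS mice and 0 to 2 in NRG1 mice, for Lgr5med against Lgr5low 0 to 1 and 0, for Lgr5low against Lgr5neg 37 to 41 and 37 to 38, for Lgr5high against Lgr5neg 40 to 42, and 0 for the differences in response. As a share of all counts, mitochondrial rRNA included, the members took 0.0921 and 0.135% in Lgr5high cells (PBS and NRG1), 0.0918 and 0.0946% in Lgr5med, 0.0729 and 0.0777% in Lgr5low and 0.0115 and 0.0146% in Lgr5neg cells. Leaving out mitochondrial rRNA before scaling changed no count of calls. The block changed no other count by over 1.5 times. Of 4089 recomputed values of 23 named members, 4004 kept their side of the threshold, 46 lost their call (34 with a library left out) and 39 gained one. Of values called in the main or the alternative fit, 0 reversed direction. Changes of direction among values called in neither fit were not counted. Uniqueness over the genome was not run, since only transcripts could be used. Members under the floor of 3 counts in Lgr5neg cells set no upper limit to a fold.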
